A study of Mus musculus with 48 samples.

Results

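The genes of the Myc and Max network were followed in 24 clones of mouse bone marrow cells, each sequenced once as a monocyte culture and once as a progenitor culture. The 8 members were chosen by name (Myc, Mycn, Max, Mxd1, Mxi1, Mxd3, Mxd4 and Mnt) and are 8 of the 34617 gene rows used. All 8 were in the table and all 8 passed the filter for testing, a mean of at least 1 TPM over the 48 libraries. Mycn passed it through the progenitors alone, since its mean in monocytes was 0.0563 TPM. TPM are transcript levels per length and per library total, so levels of different genes can be set side by side, but they keep no sequencing depth.

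All libraries came from ER-Hoxb8 cells. These are myeloid progenitors kept dividing by a Hoxb8 protein fused to part of the estrogen receptor, and they mature once that fusion is switched off. The 24 libraries labelled as monocytic cells (monocytes) and the 24 labelled GMP, read here as granulocyte-monocyte progenitors (progenitors), carry the clone numbers 1 to 13, 15 to 24 and 26. The labels give 1 growth protocol for both groups, RPMI medium with serum, antibiotics and SCF (stem cell factor), and do not say how the cells were matured. Both groups carry the ER-Hoxb8 construct, each clone is a line of its own, and the sources used here give no strain, age or sex of the mice. The question was how the network differed between the matured and the progenitor culture of the same clone, and how it varied between clones.

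The monocyte label was checked against marker genes. The 10 monocyte markers summed to 2143, 12225 and 21049.8 TPM (lowest, median and highest library) in monocytes, against 61.4, 179 and 1350.0 TPM in progenitors. Most of this sum was Lyz2, with a mean of 9113 TPM in monocytes, where the sum had a mean of 11203 TPM. Of the 10 markers 9 were higher in monocytes, and Ccr2 was lower (mean 38.3 TPM, against 64.2 TPM in progenitors). The 9 neutrophil markers summed to 387, 74543 and 187098 TPM in monocytes, against 7.52, 36.9 and 10919 TPM in progenitors. None of the 9 was at 0 in any monocyte library, and their sum exceeded that of the monocyte markers in 21 of 24 monocyte libraries. The markers therefore go against a purely monocytic culture, and the name monocyte is used here only as the label gives it. The 7 progenitor markers summed to 15.9, 72.7 and 399 TPM in monocytes, against 356, 1329 and 2238 TPM in progenitors. Summed markers of other cell types also had unlike levels in the states. The median sum of 8 mast cell and basophil markers was 139 TPM in monocytes, against 1564 TPM in progenitors, where it exceeded that of the progenitor markers. The median sum of the 5 eosinophil markers was 120 TPM in monocytes, against 0.886 TPM in progenitors. That of 8 erythroid and megakaryocyte markers was 49.2 TPM in monocytes, against 191 TPM in progenitors, and that of 8 lymphoid markers 25.7 TPM in monocytes, against 87.1 TPM in progenitors. The part of these cell types in the state changes was not tested. Clones 15 to 26 (n = 11) and clones 1 to 13 (n = 13) are known from an earlier look at this table to stand apart. The labels name no batch, so values within each set are given beside the pooled ones. Some libraries stood apart within their group: mitochondrial transcripts took 25.1% of monocyte clone 26, only 8240 genes reached 1 TPM in progenitor clone 24, and 23247 genes were at 0 in progenitor clone 21. In bulk cultures such as these, fewer cells of a type and less RNA per cell cannot be told apart.

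Myc and its relative Mycn are transcription factors that bind DNA as dimers with Max, mostly at the E-box CACGTG, and raise genes of growth, ribosome building and nucleotide synthesis. Mxd1, Mxi1, Mxd3, Mxd4 and Mnt bind the same partner and the same sites, but bring the Sin3 corepressor with its histone deacetylases, so Max stands at the centre and the other members compete for it. Myc is known for driving the division of myeloid progenitors, and Mxd1 for being induced as myeloid cells mature.

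Promoter windows of 4 members are shown because their genes differ in these data: Mxd1 had the largest rise of the network, Mycn was the gene nearly lost from monocytes, and Max and Mnt varied together between clones. The RefSeq table (build GRCm38.p6, the same assembly as mm10) gave a window of 250 bases before to 50 after the start for 7 of the 8 members, and 3 windows for Mxi1. Capitals mark the E-box CACGTG and the GC box GGGCGG on either strand, and touching or overlapping matches run together. The windows lie at chr6:86669110-86669409 on the minus strand, chr12:12941787-12942086 on the minus strand, chr12:76962199-76962498 on the minus strand and chr11:74830674-74830973 on the plus strand.
Mxd1: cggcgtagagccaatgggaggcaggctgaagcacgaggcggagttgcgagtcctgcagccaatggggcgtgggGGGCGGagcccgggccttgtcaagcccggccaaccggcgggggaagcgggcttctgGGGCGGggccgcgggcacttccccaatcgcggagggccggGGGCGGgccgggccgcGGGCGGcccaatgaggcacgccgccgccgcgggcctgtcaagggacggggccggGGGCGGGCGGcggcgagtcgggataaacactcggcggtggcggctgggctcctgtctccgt
Mycn: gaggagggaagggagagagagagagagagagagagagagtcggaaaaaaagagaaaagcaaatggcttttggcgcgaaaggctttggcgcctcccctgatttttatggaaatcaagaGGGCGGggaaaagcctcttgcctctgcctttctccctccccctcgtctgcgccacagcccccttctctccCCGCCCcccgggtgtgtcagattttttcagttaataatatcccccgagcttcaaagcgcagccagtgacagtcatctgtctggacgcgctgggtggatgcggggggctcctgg
Max: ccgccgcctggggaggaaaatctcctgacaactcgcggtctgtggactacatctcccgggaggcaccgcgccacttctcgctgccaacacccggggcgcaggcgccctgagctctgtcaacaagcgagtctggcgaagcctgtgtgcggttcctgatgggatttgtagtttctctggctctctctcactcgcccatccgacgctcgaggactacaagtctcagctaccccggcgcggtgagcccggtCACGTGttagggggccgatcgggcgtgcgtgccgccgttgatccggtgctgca
Mnt: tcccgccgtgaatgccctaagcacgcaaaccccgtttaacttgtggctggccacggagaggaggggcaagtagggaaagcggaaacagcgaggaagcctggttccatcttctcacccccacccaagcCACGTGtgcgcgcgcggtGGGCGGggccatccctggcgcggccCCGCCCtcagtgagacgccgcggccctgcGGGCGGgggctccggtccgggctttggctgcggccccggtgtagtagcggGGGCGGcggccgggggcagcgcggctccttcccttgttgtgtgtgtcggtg

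The E-box stood in the windows of Max (position -3 from the start), Mnt (position -123) and Mxd4 (position -219), and 7.15% of 32851 promoter windows of this length hold it. The GC box, bound by Sp1, occurred 8 times in the Mxd3 window, 6 times in that of Mxd1, 4 times in that of Mnt, 2 times in that of Mycn, once in that of Mxd4, 1, 4 and 4 times in the windows of Mxi1 and not in that of Max, and 35.7% of all windows hold at least 1 copy. Of 3 other motifs searched on both strands, the ETS core GAGGAA stood in the windows of Max and Mnt and in 1 window of Mxi1 (28.3% of all windows), the E2F core TTCCCGC in that of Mxd3 (4.60%) and the C/EBP core TTGCNNAA in that of Mxd4 (10.8%). RefSeq places the start of Max upstream of the gene's start in GENCODE, and the end of the Max window was found in none of its GENCODE transcripts, so the position of its E-box is relative to the RefSeq start alone. A match describes the letters only, and a window without one says nothing of the factor.

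Between the states, the activating members were lower in monocytes and most of the repressing members were higher. Myc and Mycn fell, together with Mxd4, while Mxd1, Mxi1, Mxd3, Mnt and Max rose. All calls are from limma with the clone as block, fitted to log2(TPM + 1), at a Benjamini-Hochberg adjusted p under 0.05. Of 11072 genes tested, 32.4% were called higher and 36.5% lower in monocytes, so a call sets no member apart, and the 5 higher and 3 lower members are read by their size. The median log2 fold change over all genes was -0.06.

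Myc (chromosome 15 from 61985391 to 61990374 of GRCm38, protein-coding) was the most abundant partner of Max in progenitors and a middling one in monocytes. It had 0.629, 7.26 and 61.5 TPM (lowest, median and highest) in monocytes, against 9.76, 57.2 and 148 TPM in progenitors. The groups overlapped because monocyte clones 22 (61.5 TPM) and 17 (44.0 TPM) kept high levels and progenitor clone 24 (9.76 TPM) had a low one. Myc averaged 10.5 ± 13.7 TPM in monocytes and 68.4 ± 39.8 TPM in progenitors (SD, n = 24 each), and its log2 fold change was -2.84 (SE 0.31, limma adjusted p = 4.15e-09). It was lower in the monocytes of 23 of 24 clones, the exception being clone 24, where monocytes had 15.5 TPM and progenitors 9.76 TPM. Over all genes tested, 57 had a lower fold change.

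Mycn (chromosome 12 from 12936093 to 12941914), the family member best known from neural and other embryonic progenitors, was close to absent from monocytes. It had 0, 0.0250 and 0.315 TPM in monocytes, against 0.471, 5.78 and 13.6 TPM in progenitors. The libraries of the states did not overlap, as for 0.56% of genes tested with monocytes lower and 1.14% with monocytes higher. Mycn passed the filter through the progenitors alone, which favours such a gap, so the gap is a description only. In monocytes 4 libraries listed it at 0, all of clones 15 to 26. The log2 fold change was -2.49 (SE 0.18, limma adjusted p = 1.42e-12), lower in 24 of 24 clones. Its size follows the pseudocount, with -5.05 at 0.1 TPM and -1.04 at 5 TPM.

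Max (chromosome 12 from 76937269 to 76962201), the shared partner, was the most abundant member in both states and differed little between them. It had 14.8, 191 and 702 TPM in monocytes, against 38.4, 126 and 212 TPM in progenitors. Monocytes spread far wider, with clones 20 (702 TPM) and 21 (437 TPM) at the top and clone 19 (14.8 TPM) at the bottom. The log2 fold change was 0.56 (SE 0.24, limma adjusted p = 0.0429), higher in 17 of 24 clones. The call ended when any of clones 1, 2, 3, 5, 6, 7, 9, 10, 11, 12, 13, 15, 20, 21 or 24 was left out (adjusted p from 0.0548 to 0.0813). It ended too once mitochondrial, Gm and pseudogene entries were removed and the rest rescaled (log2 fold change 0.31, adjusted p = 0.188).

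Mxd1 (chromosome 6 from 86647042 to 86669161), a repressor that takes the place of Myc on Max, had the largest rise of the network. It had 3.04, 37.0 and 267 TPM in monocytes, against 0.317, 2.76 and 7.83 TPM in progenitors. It was scarce in all progenitors and abundant in most monocytes, and the groups overlapped through 5 monocyte libraries, those of clones 17 (4.82 TPM), 22 (5.13 TPM), 23 (3.04 TPM), 24 (5.18 TPM) and 26 (5.20 TPM). Mxd1 averaged 51.9 ± 61.6 TPM in monocytes and 2.77 ± 1.68 TPM in progenitors (SD, n = 24 each), and its log2 fold change was 3.17 (SE 0.30, limma adjusted p = 3.59e-10). It was higher in the monocytes of 24 of 24 clones, and 216 of all genes tested had a higher fold change. Whether its change was larger than the falls of Myc and Mycn depended on scale and clones: Mycn changed more at a pseudocount of 0.1 (-5.05, against 3.62 for Mxd1), Mycn (-3.18) and Myc (-3.16) marginally so with rescaled TPM (Mxd1 3.13), and Myc in clones 15 to 26 (-3.41, against 2.36 for Mxd1).

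Mxi1 (chromosome 19 from 53310518 to 53375810), a repressor of the same family, rose with Mxd1. It had 2.20, 10.6 and 29.1 TPM in monocytes, against 1.37, 2.78 and 4.45 TPM in progenitors. Clones 21 and 20 were highest in monocytes (29.1 and 28.8 TPM) and clone 23 (2.20 TPM) was lowest, and these clones lay at the ends for Mxd1 too. The log2 fold change was 1.46 (SE 0.17, limma adjusted p = 2.25e-08), higher in 23 of 24 clones.

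The other repressors moved less, and not all in the same direction. Mxd3 (chromosome 13 from 55325168 to 55329823), a repressor known from cells in S phase, had 0.171, 4.06 and 12.02 TPM in monocytes, against 0.612, 2.43 and 4.87 TPM in progenitors. Its log2 fold change was 0.69 (SE 0.19, limma adjusted p = 0.00234), higher in 17 of 24 clones, and was not called within clones 15 to 26 alone (adjusted p = 0.152). Mnt (chromosome 11 from 74830920 to 74845725), the repressor found in most cells, dividing or not, had 2.24, 6.99 and 16.8 TPM in monocytes, against 0.950, 4.40 and 10.2 TPM in progenitors. The states overlapped over most of their range for both genes. The log2 fold change of Mnt was 0.48 (SE 0.20, limma adjusted p = 0.0311), higher in 16 of 24 clones. Its call ended without any of clones 5, 7, 10, 11, 13, 20, 21 or 24 (adjusted p from 0.0506 to 0.0585) and with rescaled TPM (log2 fold change 0.30, adjusted p = 0.142).

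Mxd4 (chromosome 5 from 34173883 to 34187720) was the only repressor of the 5 that was lower in monocytes. It had 6.15, 9.54 and 23.3 TPM in monocytes, against 5.63, 13.7 and 21.9 TPM in progenitors, and the groups overlapped almost fully. The log2 fold change was -0.31 (SE 0.13, limma adjusted p = 0.0395), lower in 17 of 24 clones. The call ended without any of clones 1, 2, 3, 4, 6, 8, 12, 15, 16, 17, 22 or 26 (adjusted p from 0.0531 to 0.0777), and without the replicate block (adjusted p = 0.0503). With rescaled TPM it was -0.56 (adjusted p = 1.57e-04).

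The order of the members by mean level differed between the states. In monocytes it ran Max, Mxd1, Mxd4, Mxi1, Myc, Mnt, Mxd3 and Mycn. Only the steps from Max to Mxd1 (mean log2 difference 2.52, SD 1.20, n = 24) and from Mxd3 to Mycn (2.29, SD 0.82) exceeded the SD over clones, so the 6 members between them did not differ from their neighbours beyond their spread. In progenitors it ran Max, Myc, Mxd4, Mycn, Mnt, Mxi1, Mxd1 and Mxd3. There the steps from Max to Myc (1.07, SD 0.54), from Myc to Mxd4 (2.01, SD 0.74) and from Mxd4 to Mycn (1.26, SD 0.80) exceeded the SD, and each held in 24 of 24 clones. The 5 members from Mycn down did not differ from their neighbours beyond their spread.

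Because these genes share Max, their transcripts were also set against each other. Over the 7 partners of Max, the summed level was 96.5 ± 67.7 TPM in monocytes and 101 ± 46.8 TPM in progenitors (SD, n = 24 each), higher in monocytes in 13 of 24 clones. The sets of clones went different ways. In clones 15 to 26 the median sum was 76.1 TPM in monocytes, against 140 TPM in progenitors. In clones 1 to 13 it was 82.9 TPM in monocytes, against 68.7 TPM in progenitors. Myc and Mycn together held 0.190, 8.96 and 69.4% of the summed level in monocytes, against 54.4, 70.0 and 84.5% in progenitors. Their share was lower in the monocytes of 24 of 24 clones. It was at least 50% in 2 monocyte libraries (clones 17, at 58.2%, and 22, at 69.4%) and in all 24 progenitor libraries. Mxd1 alone held 43.6% ± 21.9 in monocytes and 2.81% ± 1.43 in progenitors. Mxd1 exceeded Myc in 18 of 24 monocyte libraries, 5 of the 11 of clones 15 to 26 and all 13 of the other set, and in 0 of 24 progenitor libraries. Max stood at 2.37 ± 0.874 TPM per TPM of its partners in monocytes and at 1.38 ± 0.373 in progenitors, a higher ratio in monocytes in 22 of 24 clones. These shares describe transcripts, are built from the members and were given no test.

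**Figure D1:**
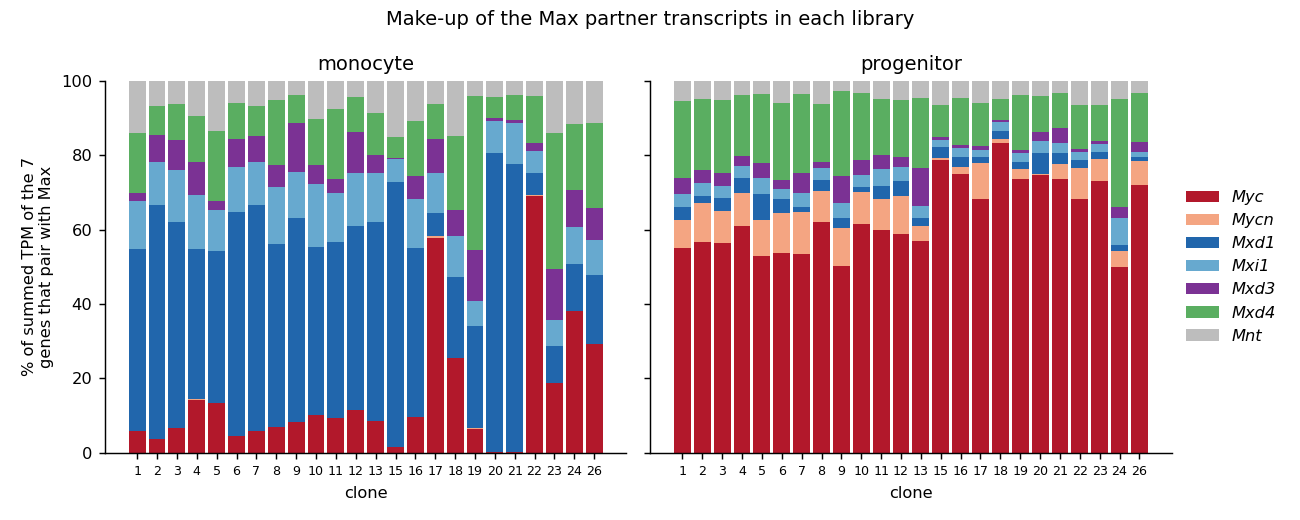
Share of the summed TPM of the 7 Max partners held by each gene (percent, stacked bars), per clone, in monocytes (left) and progenitors (right). Myc and Mycn (red and orange) hold 54.4% or more of every progenitor bar, and Mxd1 (dark blue) the largest share of most monocyte bars, while in monocyte clones 17 and 22 Myc and Mycn hold 58.2% and 69.4%.

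The size of the state change was then compared between the sets of clones. The log2 rise of Mxd1 was 2.36 in clones 15 to 26, against 3.86 in clones 1 to 13, which differ by -1.50 (SE 0.54) and did not pass (limma interaction, adjusted p = 0.0668). Mxi1 rose by 1.01 in clones 15 to 26, against 1.85 in clones 1 to 13, a difference of -0.84 (adjusted p = 0.0736). Mnt had 0.04 (not called) in clones 15 to 26, against a rise of 0.85 in clones 1 to 13, a difference of -0.81 (adjusted p = 0.143). Max had 0.11 (not called) in clones 15 to 26, against a rise of 0.94 in clones 1 to 13, a difference of -0.83 (adjusted p = 0.242). Myc fell by 3.41 in clones 15 to 26, against 2.36 in clones 1 to 13, a difference of -1.04 (adjusted p = 0.245). Mycn fell by 2.15 in clones 15 to 26, against 2.78 in clones 1 to 13, a difference of 0.63 (adjusted p = 0.227). Mxd3 (-0.22, adjusted p = 0.748) and Mxd4 (-0.01, adjusted p = 0.980) differed least. None of the 8 members passed, against 11.5% of all genes. These misses do not show that the sets act alike: with clones 21, 24 and 26 left out, Mxd1 (-1.77, adjusted p = 0.0156), Mxi1 (-1.004, adjusted p = 0.0111) and Mnt (-1.08, adjusted p = 0.0287) passed. So did Mxd1 and Mxi1 without clone 8, 20 or 21 (adjusted p from 0.0104 to 0.0380), Mxi1 (0.0495) and Myc (0.0377) without clone 24, and Mnt without clone 8 (0.0399) or 24 (0.0472). Within clones 15 to 26 alone Myc, Mycn, Mxd1 and Mxi1 were called, and within clones 1 to 13 alone all members but Mxd4 (adjusted p = 0.0825).

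**Figure D2:**
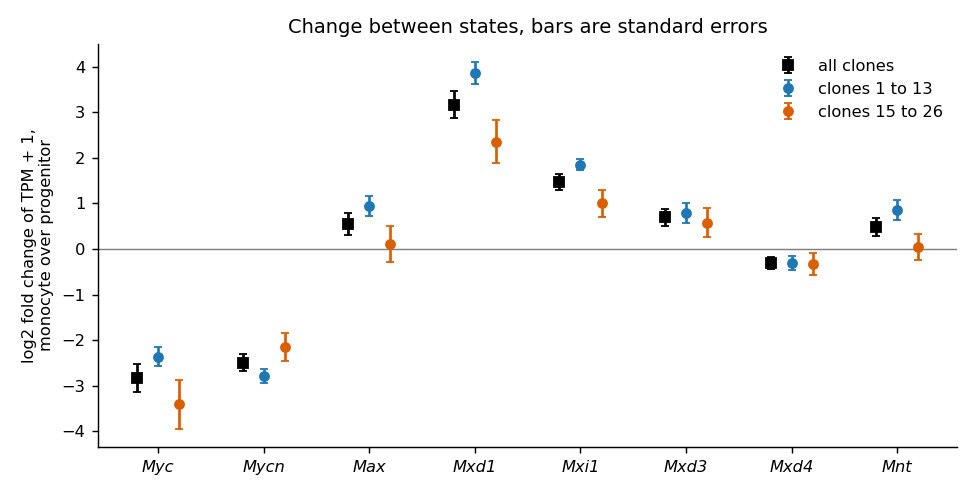
Log2 fold change of TPM + 1, monocyte over progenitor, for each member over all 24 clones (black), clones 1 to 13 (blue) and clones 15 to 26 (orange); bars are standard errors. Mxd1, Mxi1, Max and Mnt sit lower in clones 15 to 26, and Mxd3 and Mxd4 lie at like values in the sets.

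Within progenitors, 39.4% of genes differed between the sets, and of the members Myc and Mnt did. Progenitor Myc averaged 100.4 ± 36.0 TPM in clones 15 to 26 (n = 11) and 41.4 ± 15.1 TPM in clones 1 to 13 (n = 13), a log2 difference of 1.14 (SE 0.31, limma adjusted p = 0.00575). Progenitor Mnt averaged 6.69 ± 2.96 TPM in clones 15 to 26 and 3.41 ± 1.80 TPM in clones 1 to 13, a log2 difference of 0.77 (SE 0.27, limma adjusted p = 0.0240). Progenitors of clones 15 to 26 were thus higher in Myc, apart from clone 24 with the lowest progenitor value (9.76 TPM). Within monocytes 7.11% of genes differed between the sets and no member passed (0 of 8 with limma, where Mxd3 alone had an unadjusted p under 0.05). Monocyte Mxd1 had 3.04, 8.68 and 267 TPM in clones 15 to 26 and 26.1, 43.9 and 74.4 TPM in clones 1 to 13, a log2 difference of -1.19 (SE 0.59, limma adjusted p = 0.236). The clones of the first-numbered set lay close together, whereas clones 15 to 26 held both the highest and the lowest monocyte values of Myc and of Mxd1.

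The level of a member in the progenitors of a clone did not go visibly with its level in the monocytes of that clone. Pearson's r over 24 clones was -0.10 for Myc (rho -0.10), -0.06 for Max (rho -0.23), 0.28 for Mxd1 (rho 0.18), 0.05 for Mxi1 (rho -0.09), -0.06 for Mxd3 (rho -0.09), 0.16 for Mxd4 (rho 0.17) and 0.03 for Mnt (rho -0.07). None of the 7 members tested passed the one-sided permutation test of 100000 pairings (lowest adjusted p = 0.358, for Mxd1, unadjusted p = 0.0949), where 3.7% of 9570 genes did, and no member had an unadjusted p under 0.05. Without the 2 clones farthest from the median, r of Mxd1 was 0.26. Within the sets r of Mxd1 was 0.67 in clones 15 to 26 and -0.44 in clones 1 to 13. Mycn was not tested, since the test asks for a mean of at least 1 TPM and an SD of at least 0.25 (log2 scale) in each state, and in monocytes Mycn had a mean of 0.0563 TPM and an SD of 0.11. A miss at 24 clones does not show that clone differences are lost.

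Among monocyte cultures, Myc and Mxd1 ran in opposite directions. Monocyte clones 20 and 21 had the lowest Myc (0.629 and 0.757 TPM) and the highest Mxd1 (267 and 201 TPM). Monocyte clones 22 and 17 had the highest Myc (61.5 and 44.0 TPM) and Mxd1 at 5.13 and 4.82 TPM. Over the 24 monocyte libraries r between log2 levels was -0.71 (rho -0.62), -0.63 without the 2 clones farthest from the median, -0.78 within clones 15 to 26 and -0.27 within clones 1 to 13, so it rests largely on clones 15 to 26. Over the 24 progenitor libraries r was 0.70 (rho 0.62), 0.55 without 2 clones, 0.74 within clones 15 to 26 and 0.70 within clones 1 to 13. Myc and Mxd1 were thus high in the same progenitor clones and in different monocyte clones. These correlations are 2 of 216 computed and are descriptions with no p, and the values of a point share a library and its total.

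**Figure D3:**
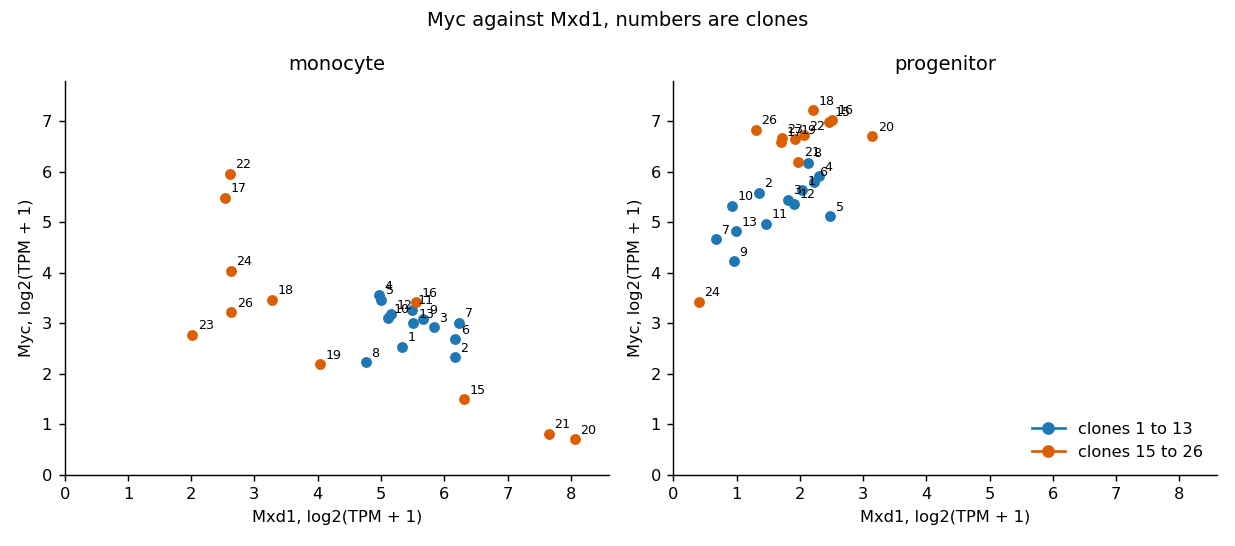
Myc against Mxd1, both as log2(TPM + 1), in monocytes (left) and progenitors (right); points are libraries, numbers are clones and colours the sets of clones. The monocyte points run down from clones 22 and 17 (Myc 61.5 and 44.0 TPM) to clones 21 and 20 (Mxd1 201 and 267 TPM), and the progenitor points run up, with r of -0.71 in monocytes and 0.70 in progenitors.

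Other members varied together in both states. Mxd1 and Mxi1 had r of 0.89 among monocytes (0.87 in clones 15 to 26, 0.83 in the other set) and 0.89 among progenitors (0.93 in clones 15 to 26, 0.83 in the other set). Max and Mnt had r of 0.81 among monocytes (0.87 in clones 15 to 26, 0.82 in the other set) and 0.89 among progenitors (0.90 and 0.92 in those sets). Among progenitors Myc also went with Max (r = 0.85), Mnt (0.91) and Mxi1 (0.84), whereas among monocytes those r were -0.34, -0.40 and -0.42. The negative values came mainly from clones 15 to 26 (-0.39 with Max, -0.55 with Mnt and -0.46 with Mxi1), while in clones 1 to 13 they were 0.19, 0.17 and -0.05. Mxd3 had r between -0.44 and 0.12 to Mxd1, Mxi1, Mxd4 and Mnt over all monocytes, and the sets went different ways. In clones 15 to 26 monocyte Mxd3 had r of -0.41 with Mxd1, -0.19 with Mxi1, 0.31 with Mxd4 and -0.56 with Mnt. In clones 1 to 13 these r were 0.62, 0.60, -0.64 and -0.41. Progenitor clone 24, which had the lowest progenitor value of Myc, Mxd1, Mxi1, Mxd3 and Mxd4, is part of each progenitor r.

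The levels of Myc and Mxd1 in monocytes moved with the neutrophil markers, and that of Myc also with the progenitor markers. Monocyte clone 22, with the lowest neutrophil sum (387 TPM), had 61.5 TPM of Myc and 5.13 TPM of Mxd1, and monocyte clone 21, with the highest (187098 TPM), had 0.757 TPM of Myc and 201 TPM of Mxd1. Over the 24 monocyte libraries r with the log2 neutrophil sum was 0.83 for Mxd1 (rho 0.83, 0.80 without 2 clones, 0.81 in clones 15 to 26 and 0.63 in clones 1 to 13). It was -0.70 for Myc (rho -0.58, -0.39 without 2 clones, -0.81 in clones 15 to 26 and -0.40 in clones 1 to 13). The 2 clones left out were those farthest from the median of the gene itself, 22 and 17 for Myc and 23 and 20 for Mxd1. For Myc they gave much of the size of r, and its direction held without them. With the progenitor marker sum, r was 0.75 for Myc (0.55 without 2 clones, 0.82 in clones 15 to 26 and 0.57 in clones 1 to 13). For Mxd1 that r was -0.22 (-0.42 and 0.38 in those sets). Clones 22 and 17 had the highest progenitor marker sums of the monocyte libraries (399 and 267 TPM). With the monocyte marker sum, most of it Lyz2, r was 0.29 for Mxd1 and -0.10 for Myc. With the mitochondrial share of TPM, r was -0.75 for Mxd1 (-0.73 in clones 15 to 26, -0.48 in clones 1 to 13), -0.84 for Mxi1 (-0.84 and -0.63), -0.76 for Max (-0.81 and -0.68) and 0.26 for Myc (0.34 and -0.43). The part of the neutrophil markers, the progenitor markers and the mitochondrial share in the levels of Mxd1 and Myc was not tested.

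**Figure D4:**
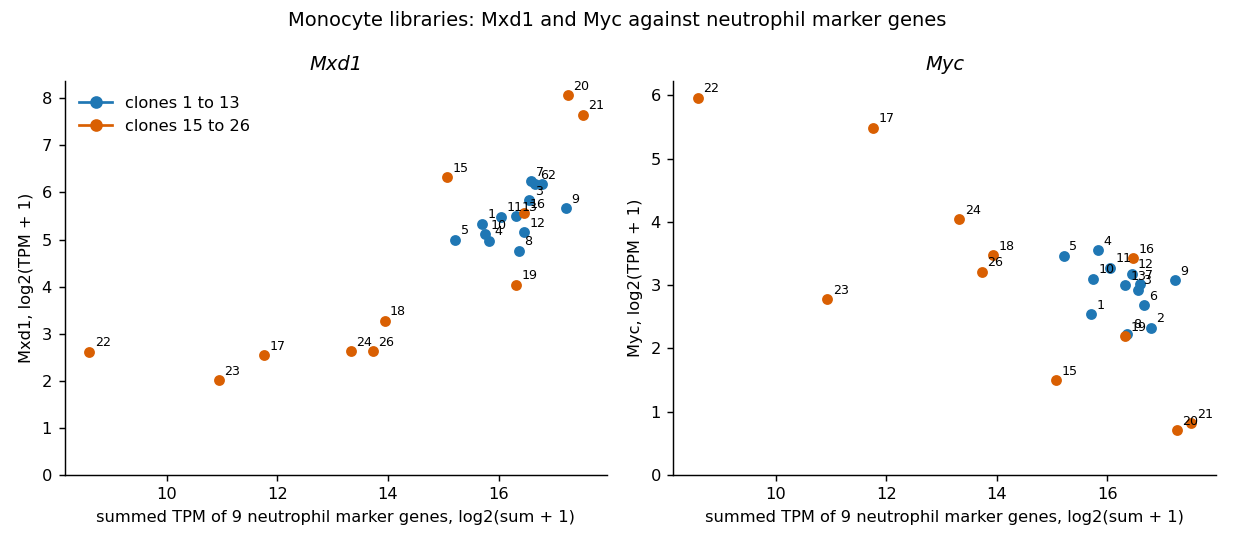
Mxd1 (left) and Myc (right), log2(TPM + 1), against the summed TPM of 9 neutrophil marker genes, log2(sum + 1), in the 24 monocyte libraries; numbers are clones. Mxd1 runs up from clones 22, 23 and 17 to clones 20 and 21 (r = 0.83), and Myc runs down (r = -0.70).

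The genes that Myc is known to raise were lower in monocytes. Of 25 such genes 24 were tested, and 23 were lower, 0 higher and 1 (Cdc25a, 0.05) not called, with a median log2 fold change of -1.77, against -0.06 over all genes. The steepest were Ccnd2, a D-type cyclin (-3.58, 8.84 ± 11.8 TPM in monocytes and 89.6 ± 94.2 TPM in progenitors), Odc1, the rate-limiting enzyme of polyamine synthesis (-2.83, 16.3 ± 15.5 TPM in monocytes and 100.5 ± 34.8 TPM in progenitors), and Srm, spermidine synthase (-2.68, 24.9 ± 25.9 TPM in monocytes and 121 ± 34.1 TPM in progenitors). Of 7 genes that Myc is known to repress 5 were tested, and 4 were higher and 1 lower, with a median of 1.41. The cell cycle inhibitors Cdkn1a (1.75) and Cdkn1b (1.41) and the stress gene Ndrg1 (1.56) rose. The factor Cebpa, a driver of granulocyte and monocyte fate, fell (-0.89). Gadd45a rose too (0.66). Of these 5, the change of 4 differed between the sets of clones (limma interaction, adjusted p under 0.05), where 11.5% of all genes did. In clones 15 to 26 the change was 0.85 for Cdkn1a, 0.78 for Ndrg1, 0.05 for Gadd45a and -1.52 for Cebpa. In clones 1 to 13 these changes were 2.51, 2.22, 1.18 and -0.36.

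The target level went with that of Myc between clones within a state, among progenitors no more closely than with that of Max or Mnt. The mean log2 level of the 24 measured Myc-raised genes was 3.45, 5.27 and 6.71 in monocytes, against 5.46, 6.84 and 7.48 in progenitors. Monocyte clones 22 (6.71) and 17 (6.30), the ones with high Myc, were the highest of the monocyte libraries, and clones 21 (3.45) and 20 (3.83), the ones with low Myc, the lowest. Over libraries r between Myc and this mean was 0.89 among monocytes (rho 0.81, 0.83 without 2 clones, 0.92 in clones 15 to 26 and 0.62 in clones 1 to 13) and 0.84 among progenitors (rho 0.81, 0.72 without 2 clones, 0.88 in clones 15 to 26 and 0.92 in clones 1 to 13). Among progenitors the same mean had r of 0.91 with the repressor Mnt (0.92 without 2 clones) and of 0.89 with Max (0.84 without 2 clones). Among monocytes Mnt had r of -0.14 with it (-0.39 in clones 15 to 26, 0.76 in clones 1 to 13) and Max -0.20 (-0.32 and 0.71 in those sets). The summed dividing-cell markers ran alongside, with r to Myc of 0.72 among monocytes (0.90 in clones 15 to 26, 0.28 in clones 1 to 13) and 0.69 among progenitors (0.97 and 0.77 in those sets). Of those 10 markers 8 were lower in monocytes and 2 (Mki67, Pcna) were not called, with Mcm2 at -1.64, Tyms at -1.57 and Mcm5 at -1.22. Their part in the target levels was not tested.

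The proteins that Myc and the Mxd family work with moved both ways. Of 11 genes of the Sin3 corepressor 4 were lower and 5 not called, with a median log2 fold change of -0.14. The histone-binding subunit Rbbp7 (-1.55) and the deacetylase Hdac2 (-1.30) fell, and the scaffold Sin3a was at 14.0 TPM in monocytes and 15.4 TPM in progenitors (-0.12, not called). That value averages opposite ones, -0.89 in clones 15 to 26 and 0.54 in clones 1 to 13 (limma interaction, adjusted p = 0.0447). Of 11 coactivators of Myc 3 were higher, 5 lower and 3 not called (median -0.31). The paired helicases Ruvbl1 (-2.08) and Ruvbl2 (-1.85) and the remodeller subunit Actl6a (-1.34) fell, while the scaffold Trrap rose by 0.60. In the wider network of Max-like factors, Mlx (0.87) and its partner Mlxip (0.77) rose and Mga (-0.18) was not called. The sets differed for Mlxip (0.17 in clones 15 to 26 and 1.29 in clones 1 to 13, limma interaction, adjusted p = 0.0260) and for Mga (-0.88 in clones 15 to 26 and 0.40 in clones 1 to 13, adjusted p = 0.0358). Mycl averaged 0.00121 TPM in monocytes and 0.00444 TPM in progenitors and was not tested.

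Genes that act on Myc protein or on its transcription changed in both directions. Of 8 turnover genes 1 was higher, 3 lower and 4 not called. The kinase Gsk3b, which marks Myc for degradation, rose (0.73), the deubiquitinase Usp36 fell (-0.61), and the ubiquitin ligase subunit Fbxw7 had 4.26 TPM in monocytes and 4.67 TPM in progenitors (-0.10, not called). The change of Usp36 was -1.15 in clones 15 to 26 and -0.16 in clones 1 to 13, which differ (limma interaction, adjusted p = 0.0193). Of 6 genes known to act on Myc transcription 2 were lower in monocytes. Fubp1, which binds an element upstream of Myc, fell by 1.47 on the log2 scale (18.6 TPM in monocytes and 53.0 TPM in progenitors, lower in 23 of 24 clones), a change as large as that of Mxi1, and Hnrnpk, a nucleic acid binding protein, fell by 0.48.

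Over all 48 libraries, with the means of each state and set of clones removed, the genes most like Myc among those with a mean of at least 10 TPM were Lyar (r = 0.93), Set (0.93) and Nolc1 (0.93). Those most like Mxd1 were Msra (0.94), Tcp11l2 (0.92) and Slc27a4 (0.92). Among the members, Mxd1 was closest to Mxi1 (0.87) and Max to Mnt (0.83). Myc had its highest value with Mycn (0.31), a value that joins unlike states. Among progenitors alone Myc had 0.42 with Mycn, against 0.89 with Max and 0.88 with Mnt. Among monocytes alone Myc had 0.77 with Mycn, a gene close to absent there, against -0.34 with Max and -0.40 with Mnt. With the set means kept, that r with Mycn was 0.74 (rho 0.48, 0.79 in clones 15 to 26 and 0.35 in clones 1 to 13). It was 0.31 without the 2 clones farthest from the median of Myc.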

How the data were processed

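RNA of 48 libraries, 24 monocyte and 24 progenitor cultures of the same 24 clones, was analysed from 1 deposited table of TPM per gene symbol. Salmon and the build mm10 are named in the submitters' processing notes; neither the annotation release nor the summing of transcripts to genes is. TPM as the authors deposited them keep no depth, so counting error is unknown, and a 0 may be an estimate that failed. Being relative, they fall for all genes where 1 class of transcripts grows. Of 34643 rows, 26 named as calendar dates were left out.

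Groups come from the source label and clones from the titles. The series design text pairs the states by clone. The libraries of a clone deviated together from their group means (r above 0.1) in 18 of 24 clones, and in 12 with each set of clones centred (10 of the 11 of clones 15 to 26, 2 of the 13 others). The labels do not say whether a clone was cultured more than once. P-values of state changes, and of their difference between the sets, rest on the spread of within-clone differences over clones. Those of the sets within a state rest on the spread between clones. As each clone was sequenced once per state, both spreads also hold differences between cultures and libraries.

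Log2(TPM + 1) values were fitted with limma (version 3.58.1, R 4.3.3), and state changes were tested two-sided, with a variance trend and the clone as block, for 11072 genes with a mean of at least 1 TPM. P-values were adjusted by the Benjamini-Hochberg method over all of them, with a threshold of 0.05. Fold changes on this scale understate those of low genes. Sets of clones were compared by limma on the within-clone differences and within each state. The level of a gene in the states of a clone was compared by Pearson correlation with 100000 permuted pairings, for 9570 genes with a mean of at least 1 TPM and an SD of at least 0.25 in each state. Both tests were tested on simulated data. Levels, shares and correlations between genes are descriptions with no test. Alternatives changed the pseudocount, the filter, the scaling, the block and the clones. Members and lists (147 genes in 16 lists, 145 in the table) were chosen with earlier results of these data known. All members are named, and from every other list up to 3 called genes with the largest change, with exceptions that were chosen after their values were seen (Trrap, Sin3a, Fbxw7, Mga, Mycl, Cdc25a, Cebpa, Gadd45a, Ccr2, Mki67 and Pcna). Some genes that this rule names are not reported here. Coordinates are from GENCODE (GRCm38) and promoters from RefSeq. Figures were drawn with matplotlib 3.10.9 and other steps ran in Python 3.11.15 (pandas 2.3.3, numpy 2.4.6, numba 0.67.0).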

Additional observations from a re-analysis of the deposited data

How the results depend on the processing

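The state changes of Myc, Mycn, Mxd1 and Mxi1 kept their direction and stayed past the threshold under every alternative run (leaving out any clone gave -2.99 to -2.70, -2.58 to -2.45, 3.06 to 3.30 and 1.40 to 1.54). No state change of a member turned its direction. Leaving out 1 clone gave 0.48 to 0.70 for Max, 0.42 to 0.55 for Mnt, -0.37 to -0.26 for Mxd4 and 0.64 to 0.77 for Mxd3. With no filter on low values, Max (0.56, adjusted p = 0.0821), Mxd4 (-0.31, adjusted p = 0.0532) and Mnt (0.48, adjusted p = 0.0575) no longer passed. Nor did Max (0.31) and Mnt (0.30) after rescaling, which moved the median of all genes to -0.25, Max (0.53) and Mnt (0.44) without clones 21, 24 and 26, Mxd4 without the replicate block (-0.31), Mxd4 in clones 1 to 13 alone (-0.31), or Max (0.11), Mxd3 (0.58), Mxd4 (-0.32) and Mnt (0.043) in clones 15 to 26 alone. A filter of 5 TPM left out Mycn and Mxd3. Over all genes, clones 15 to 26 alone gave 5005 calls (1974 higher, 3031 lower) in place of 7623 (3584 and 4039), and 7436 were called without the replicate block, which changed no other member's call. The interaction called 1268 genes (184 higher, 1084 lower), but 680 with a filter of 5 TPM, 2004 (1218 and 786) with quantile normalization, 3649 without clones 21, 24 and 26, 4676 without clones 8, 19, 21, 24 and 26 (an alternative chosen after seeing the data) and 725 to 3036 when 1 clone was left out (the ends being clones 18 and 24). Its values for Mxd4 turned to 0.042 after rescaling, to 0.32 with quantile normalization and ran from -0.13 to 0.11 without 1 clone, and that for Mxd3 turned to 0.31 with quantile normalization, none of them called. Mxd1 and Mxi1 passed the interaction after rescaling (adjusted p = 0.0382 and 0.0342) and without clone 8, 20 or 21, Mxi1 and Myc without clone 24, Mnt without clone 8 or 24, and Mycn with quantile normalization (1.16, adjusted p = 0.0113). Progenitors of the sets differed in 7477 genes without clones 21, 24 and 26 and in 7763 without clones 8, 19, 21, 24 and 26, in place of 4362 (3157 higher, 1205 lower; 4300 and 864 after rescaling), and Max, Mxd1, Mxi1 and Mxd3 then passed as well. In monocytes the sets differed in 434 higher and 353 lower genes (973 and 200 after rescaling), and the difference of Myc turned to -0.056 with a pseudocount of 0.1, that of Mnt to 0.00013 with a pseudocount of 5, 0.11 after rescaling, 0.033 without clones 21, 24 and 26 and 0.12 without clones 8, 19, 21, 24 and 26. Across the states 354 genes passed over all clones, 118 with set means removed, 31 in clones 15 to 26 and 0 in clones 1 to 13 (permutation test, 475 at an unadjusted p under 0.05). The causes were not tested. TPM keep no depth, so what depth limits is unknown.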
